A study of Rattus norvegicus with 4 samples.

Results

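The genes described here encode 10 proteins of the desmosome and the adherens junction, and they were followed in the epithelial cells of rat esophagus after X-ray exposure. They are the desmosomal cadherins Dsg2, Dsg3, Dsc2 and Dsc3, the plaque proteins Dsp (desmoplakin), Jup (plakoglobin), Pkp1 and Pkp3 (plakophilins), the membrane protein Perp, and Cdh1 (E-cadherin). They were chosen by symbol among the 30017 gene symbols of the count matrices, all 10 were found, and all passed the minimum of 20 unique molecular identifiers (UMIs) in every comparison.

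A desmosome is a spot weld between neighbouring cells. Desmogleins (Dsg) and desmocollins (Dsc) reach across the gap, Jup and the plakophilins bind their tails, and Dsp ties this plaque to the keratin filaments. An adherens junction is built on E-cadherin and is coupled to actin, and Jup can take part in both kinds of junction. In a stratified squamous epithelium such as that of the esophagus, these junctions hold the layers together against abrasion, and Perp, a target gene of p53 and p63, is needed for desmosome assembly in such tissues.

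The tissue came from male Sprague-Dawley rats aged 6 weeks, with the esophagi of 5 rats pooled into 1 single-cell RNA-seq library per group. Control rats, sacrificed at day 7, were sham-treated with 5 fractions of 0 Gy. Rats of the single-dose group, also sacrificed at day 7, had 1 fraction of 35 Gy. Rats of the fractionated groups had 5 daily fractions of 7 Gy and were sacrificed at day 7 or at day 14. The dose rate was listed as 1.7 Gy per minute for every group. All pools were kept cold, shipped, dissociated with collagenase, DNase and trypsin and passed through a dead cell removal kit, per the labels. With 1 pool per group no difference has a replicate check and no test was made. Values in parentheses are 95% intervals for counting error alone, and all statements compare these libraries.

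Epithelial cells numbered 2510 in the control, 3120 in the single-dose library, 6360 in the fractionated day 7 library and 419 in the fractionated day 14 library, or 22.1%, 33.1%, 71.6% and 4.34% of the cells kept. They carried 42613194, 69681840, 50289716 and 5684771 UMIs in that order, with medians of 15173, 18800, 6667 and 13206 UMIs per cell. The day 14 library therefore gave the widest intervals. The epithelial keratin Krt5 was at 1223, 1737, 1830 and 2464 CPM (UMIs scaled to a total of 1000000 epithelial UMIs), and Krt15 at 5017, 4177, 3745 and 7687 CPM. Of the 12 epithelial markers measured, which also served to name the clusters, 10, 9, 10 and 10 were at 100 CPM or more. Others were highest in the control, with Krt13 at 5266, 1767, 2930 and 2653 CPM and Krt4 at 1597, 468, 623 and 815 CPM. Ly6d was at 1218, 62.1, 428 and 486 CPM. The mix of layers thus may differ between libraries, and its part in the junction gene levels was not tested. The marker lists of B, T and mesothelial cells each summed to at most 1.0 CPM in these cells. The fibroblast markers summed to 700 CPM in the control, 71.2 CPM after the single dose, 22.6 CPM in the fractionated day 7 library and 405 CPM at day 14, and the neutrophil markers to 1042 CPM in the single-dose library against at most 10.1 CPM in the others. Of the 6 neutrophil markers, 2 were above 100 CPM there and none was at 0. A list of 15 immediate-early and heat shock genes, which includes Fos, Jun and Atf3, summed to 24209 CPM in the control, 3099 CPM after the single dose, 1074 CPM in the fractionated day 7 library and 24473 CPM in the fractionated day 14 library. The part of depth, of these stress genes and of the other markers in the junction gene levels was not tested. Depth was made equal only for the thinned share of cells with a UMI, given below.

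Summed over the 10 genes, junction transcripts made up 5410 CPM of the epithelial UMIs in the control, 4768 CPM after the single dose, 6940 CPM at day 7 of the fractionated course and 3293 CPM at day 14. The fractionated day 7 library had the highest level of 9 of the 10 genes, all but Perp, and the fractionated day 14 library had the lowest level of 8 of the 10, all but Dsg2 and Dsc3. The levels by library are given next by the role of each protein.

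**Figure D1:**
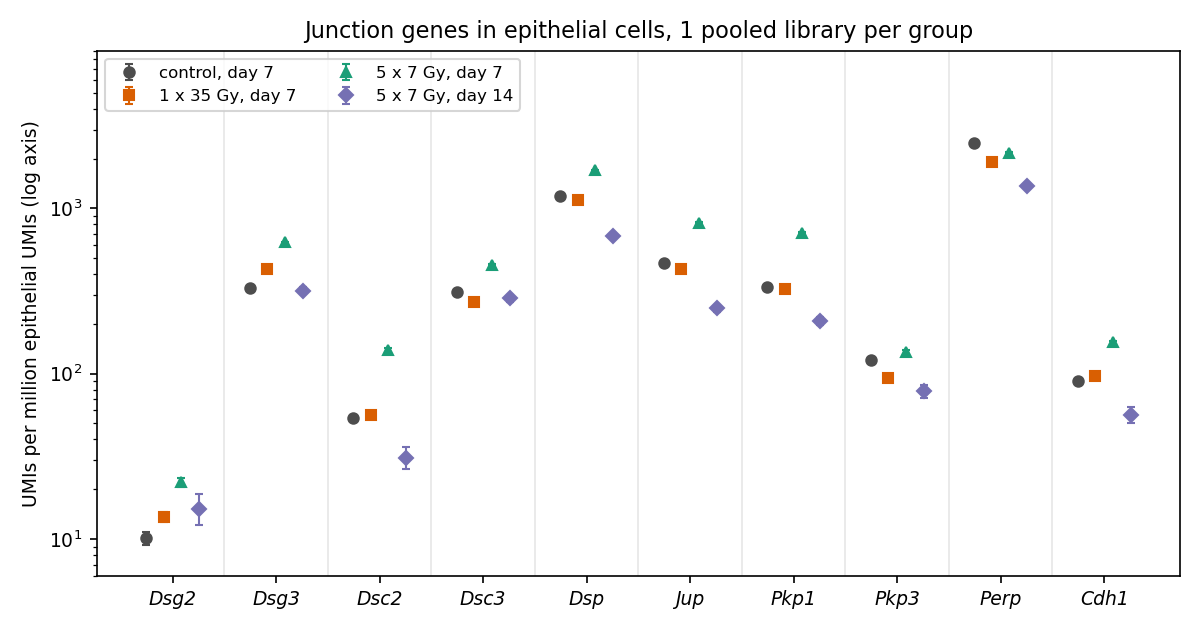
Level of each junction gene in epithelial cells (CPM, log axis) in the 4 libraries, 1 pooled library per group. Points are library values and bars are exact Poisson 95% intervals; the fractionated day 7 points (triangles) lie highest for every gene except Perp.

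Among the desmogleins, Dsg3, in epidermis the isoform of the basal and lower spinous layers and the target of pemphigus vulgaris antibodies, was at 332 CPM (326 to 337) in the control, 430 CPM (426 to 435) after the single dose, 623 CPM (617 to 630) at day 7 of the fractionated course and 318 CPM (303 to 333) at day 14. The control and day 14 intervals overlapped, and both irradiated day 7 libraries stood above them. Dsg2, the desmoglein of simple epithelia and of proliferating cells, was at 10.1 CPM (9.16 to 11.1), 13.6 CPM (12.7 to 14.5), 22.0 CPM (20.8 to 23.4) and 15.1 CPM (12.1 to 18.7) in the same order. It was lowest in the control, and the single-dose and day 14 intervals overlapped.

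Among the desmocollins, Dsc2, the most widely distributed isoform, was at 54.1 CPM (51.9 to 56.3) in the control, 56.5 CPM (54.8 to 58.3) after the single dose, 139 CPM (136 to 142) at day 7 of the fractionated course and 31.0 CPM (26.6 to 35.9) at day 14. The control and the single-dose library could not be told apart within counting error, and day 14 lay below both. Dsc3, in epidermis an isoform of the lower layers, was at 314 CPM (309 to 319), 271 CPM (267 to 275), 455 CPM (449 to 460) and 287 CPM (273 to 301). It was lowest after the single dose, with a day 14 interval that met the upper end of the single-dose interval.

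In the plaque, Dsp was at 1188 CPM (1178 to 1198) in the control, 1128 CPM (1120 to 1136) after the single dose, 1702 CPM (1691 to 1714) at day 7 of the fractionated course and 683 CPM (662 to 705) at day 14. Jup was at 470 CPM (463 to 476), 427 CPM (422 to 432), 821 CPM (813 to 829) and 248 CPM (235 to 262). Both genes had the same order of libraries, with no overlap of intervals. Pkp1, the plakophilin that strengthens desmosomes in the upper layers, was at 335 CPM (329 to 340), 327 CPM (323 to 331), 712 CPM (705 to 720) and 210 CPM (198 to 222). Pkp3, the plakophilin found throughout the layers, was at 122 CPM (118 to 125), 93.9 CPM (91.7 to 96.2), 136 CPM (133 to 139) and 78.3 CPM (71.2 to 85.9). Pkp1 shared the order of Dsp and Jup, although the control and single-dose values lay close together and their intervals met, and the range of Pkp3 across libraries was narrower.

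Perp was at 2495 CPM (2481 to 2511) in the control, 1923 CPM (1913 to 1934) after the single dose, 2174 CPM (2161 to 2187) at day 7 of the fractionated course and 1367 CPM (1337 to 1398) at day 14. It was the 1 gene of the 10 with its highest value in the control, and no intervals overlapped. Cdh1, the cadherin of the adherens junction, was at 90.6 CPM (87.8 to 93.5), 97.2 CPM (94.9 to 99.6), 155 CPM (152 to 158) and 56.3 CPM (50.3 to 62.8). Like Dsg3 and Dsc2, it was highest at day 7 of the fractionated course, next highest after the single dose and lowest at day 14.

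The first comparison asked how a single dose of 35 Gy differed from no radiation at day 7. Junction genes lay close to their control levels. None of the 10 was at least 2-fold higher or lower, against 9.54% and 11% of the 13023 genes measured. Their log2 ratios ran from -0.38 to 0.43 with a median of -0.05, beside a median of 0.16 over all genes. By direction, 4 of the 10 were higher, against 60.5% of all genes. Both desmogleins were above the control, Dsg2 by a log2 ratio of 0.43 (0.26 to 0.60) and Dsg3 by 0.38 (0.35 to 0.41). Perp and Pkp3 were below it, with log2 ratios of -0.38 (-0.39 to -0.36) and -0.37 (-0.43 to -0.32). Of the others, Dsc3, Jup, Dsp and Pkp1 were lower by a log2 ratio of -0.21 or less in size, Cdh1 was higher by 0.10 (0.04 to 0.16), and the interval of Dsc2 held 0. The directions of Dsc2, Dsc3, Dsg3, Dsp, Pkp1 and Cdh1 in this comparison changed under at least 1 other setting. Scaling by the median of ratios moved the median of all genes to 0.03 and that of the junction genes to -0.18.

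The second comparison set the fractionated course against the control at day 7. Here 9 of the 10 genes were higher, against 51.8% of the 12718 genes measured, and their median log2 ratio was 0.79 beside 0.04 over all genes. Of the 10, 3 were at least 2-fold higher, against 11.4% of all genes, and none was at least 2-fold lower, against 12.6%. Dsc2 was 2.57-fold (2.45 to 2.69) higher, Dsg2 2.18-fold (1.95 to 2.45) and Pkp1 2.13-fold (2.09 to 2.17). Dsg3 was 1.88-fold (1.84 to 1.92) higher, Jup 1.75-fold (1.72 to 1.78) and Cdh1 1.71-fold (1.64 to 1.78). Dsp and Dsc3 were 1.43-fold and 1.45-fold higher, and Pkp3 1.12-fold (1.08 to 1.16) higher. Perp was 1.15-fold (1.14 to 1.16) lower. The higher genes included cadherins of both kinds of junction and plaque genes of the desmosome, of which Jup can take part in both. The 2 libraries also differed in stress gene level and in depth per cell, by the values above.

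The third comparison set the fractionated course at day 14 against the day 7 control, the only unirradiated library, so time and radiation cannot be told apart. It shares that control with the 2 comparisons before it. The median log2 ratio was -0.68 beside 0.02 over 11879 genes, and 1 of the 10 genes was higher, against 51.2% of all genes, with the other 9 lower. None was at least 2-fold lower or higher, against 6% and 7.44% of all genes. Jup was 1.89-fold (1.79 to 2.0) lower, Perp 1.83-fold (1.78 to 1.87), Dsc2 1.75-fold (1.5 to 2.05) and Dsp 1.74-fold (1.68 to 1.8). Cdh1, Pkp1 and Pkp3 were 1.61-fold, 1.60-fold and 1.55-fold lower. Dsc3 was 1.10-fold (1.04 to 1.15) lower, the interval of Dsg3 held no difference, and Dsg2 was 1.5-fold (1.18 to 1.89) higher on 86 UMIs. In this comparison the stress gene sums were close, at 24473 and 24209 CPM, and their part was not tested.

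**Figure D2:**
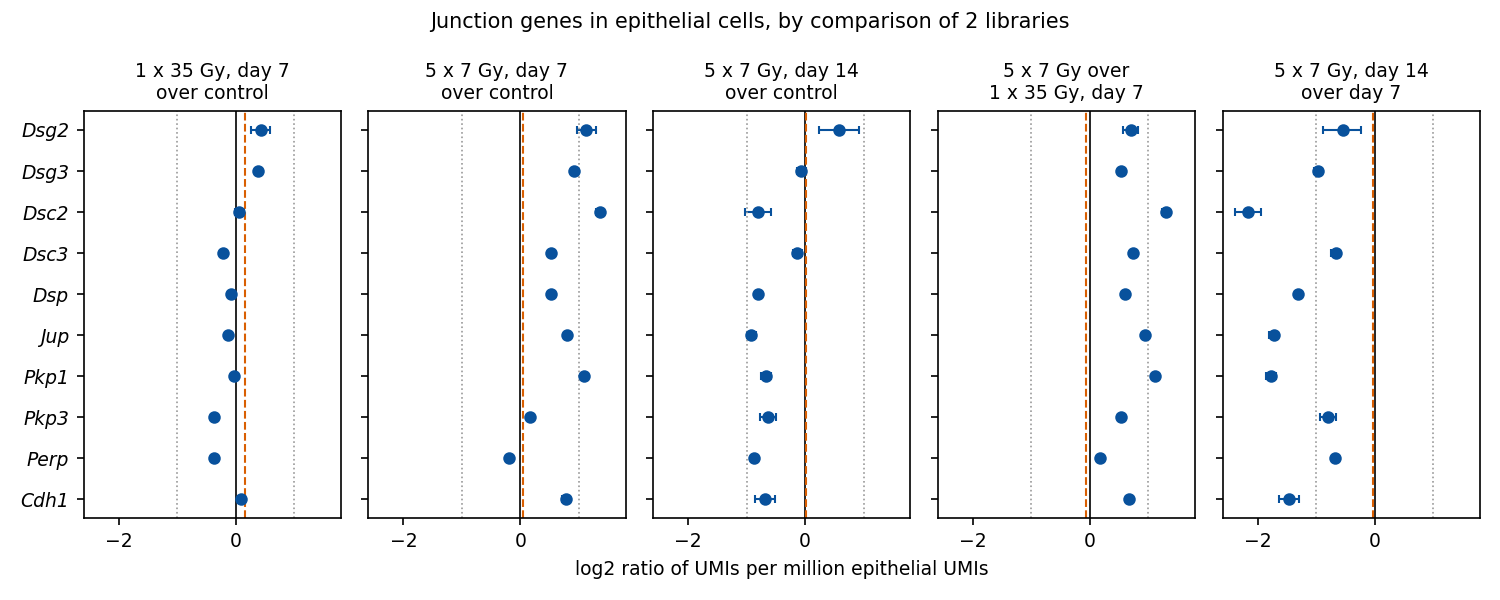
Log2 ratio of each junction gene in epithelial cells for the 5 comparisons of 2 libraries; points are ratios, bars exact conditional binomial 95% intervals, the dashed line is the median over all genes and dotted lines mark 2-fold. All 10 points lie right of 0 for fractionated over single dose at day 7 and left of 0 for day 14 over day 7.

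The 2 schedules were compared directly at day 7. All 10 junction genes were higher after 5 fractions of 7 Gy than after 1 fraction of 35 Gy, against 46% of the 12957 genes measured. The median log2 ratio was 0.69 beside -0.07 over all genes. Dsc2 was 2.46-fold (2.36 to 2.55) and Pkp1 2.18-fold (2.14 to 2.21) higher, and these were the 2 genes past 2-fold, against 8.04% of all genes. None was at least 2-fold lower, against 13.2%. Jup was 1.92-fold (1.89 to 1.95) higher and Dsc3 1.68-fold (1.64 to 1.71). Dsg2, Cdh1, Dsp, Dsg3 and Pkp3 were between 1.44-fold and 1.62-fold higher, and Perp 1.13-fold (1.12 to 1.14) higher.

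Between day 7 and day 14 of the fractionated course all 10 genes were lower at the later time. None of the 10 was higher, while 49% of the 11929 genes measured were. The median log2 ratio was -1.15 beside -0.02 over all genes. Of the 10, 5 were at least 2-fold lower, against 13% of all genes, and none was at least 2-fold higher, against 14.5%. Dsc2 was 4.48-fold (3.86 to 5.24) lower, Pkp1 3.40-fold (3.21 to 3.60), Jup 3.31-fold (3.14 to 3.49), Cdh1 2.75-fold (2.46 to 3.09) and Dsp 2.49-fold (2.41 to 2.57). Dsg3 was 1.96-fold (1.87 to 2.06) lower, just inside 2-fold, and Dsg2, Dsc3, Perp and Pkp3 were between 1.46-fold and 1.73-fold lower. The stress gene sums of these 2 libraries lay furthest apart of all, at 1074 and 24473 CPM, and their part was not tested.

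Paired isoforms did not keep a fixed proportion. Dsc3 UMIs were 85.3% (84.7 to 85.9) of the Dsc2 and Dsc3 UMIs in the control, 82.7% (82.3 to 83.2) after the single dose, 76.6% (76.1 to 77.1) at day 7 of the fractionated course and 90.2% (88.8 to 91.6) at day 14. Dsc2 thus took its largest share in the fractionated day 7 library and its smallest at day 14. Pkp1 UMIs were 73.3% (72.7 to 74.0) of those of Pkp1 and Pkp3 in the control, 77.7% (77.2 to 78.2), 84.0% (83.6 to 84.3) and 72.8% (70.6 to 75) in the same order. Dsg3 stayed between 95.5% and 97.0% of the desmoglein pair. These shares compare libraries and are no measure of how much of each protein was present, since genes differ in how well the 3' assay captures them.

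**Figure D3:**
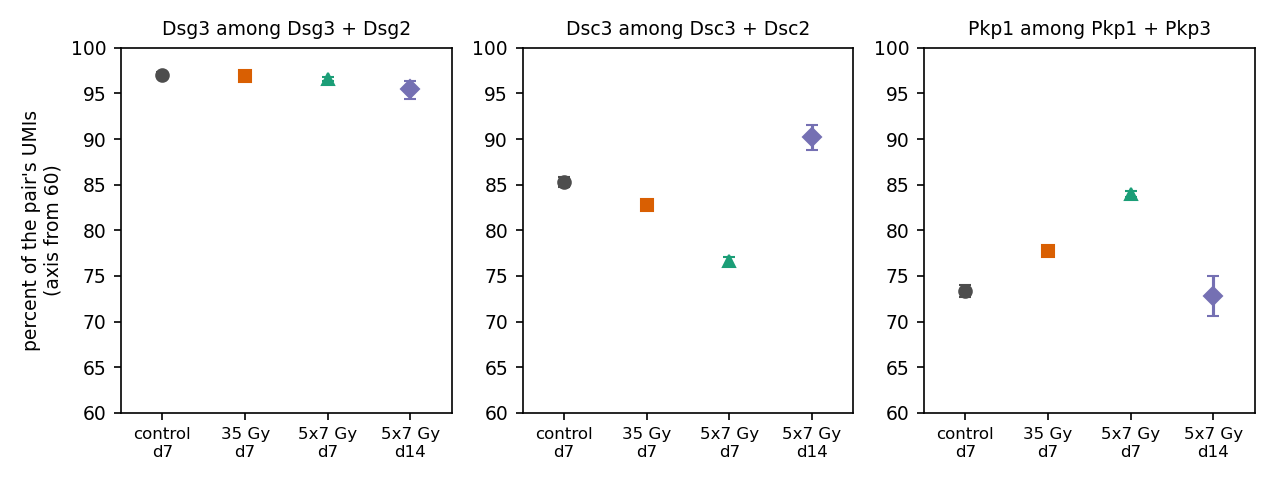
Percent of a pair's UMIs that came from Dsg3, Dsc3 and Pkp1 in the epithelial cells of each library (axis from 60), with exact Clopper-Pearson 95% intervals. The Dsc3 share is lowest and the Pkp1 share highest in the fractionated day 7 library, at 76.6% and 84.0%.

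Junction genes change with the layer of the epithelium, so the libraries were also compared at like ranks within each library. Most epithelial clusters held mainly the control and day 14 cells or mainly the cells of both irradiated day 7 libraries. Within each library cells were therefore ranked by suprabasal minus basal marker score and cut into tertiles, a range and not a cell type, with between 89 (day 14) and 942 (day 7 of the fractionated course) cells within 0.1 SD of a cut. A tertile need not hold the same layer in each library. In the most suprabasal tertile Krt13 was at 9633 CPM in the control, 3627 after the single dose, 5175 at fractionated day 7 and 7369 at day 14. Krt5 was at 51.0, 637, 382 and 453 CPM there. Tertile ratios may thus still carry differences in layer, and this was not tested. Pkp1, Jup, Dsp and Perp were higher in the most suprabasal than in the most basal tertile of every library. For Pkp1 the log2 ratio between these tertiles was 1.78, 1.94, 1.84 and 1.60, for Jup 1.65, 2.0, 1.66 and 1.16, for Dsp 1.48, 1.36, 1.67 and 0.98, and for Perp 1.52, 1.72, 1.48 and 1.22, in the order control, single dose, fractionated day 7 and day 14. The median over all genes was between -0.27 and -0.22.

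Dsg2 ran the other way in all 4 libraries. It was at 22.9, 26.8, 55.0 and 26.1 CPM in the most basal tertile and at 1.49, 2.86, 2.98 and 3.01 CPM in the most suprabasal one. The log2 ratios were -3.94, -3.23, -4.21 and -3.12. The remaining genes were moderately higher suprabasally in the 3 day 7 libraries, and the log2 ratios over all 4 libraries were 0.49 to 0.81 for Pkp3, 0.15 to 1.25 for Dsg3, 0.45 to 1.65 for Dsc2, 0.12 to 1.06 for Dsc3 and 0.12 to 0.69 for Cdh1. At day 14 the intervals of Dsg3, Dsc2, Dsc3 and Cdh1 held 0, so among these 5 genes a difference beyond counting error was seen there for Pkp3 alone. The single-dose library had the largest ratios for Dsc2, Dsc3 and Dsg3, at 1.65, 1.06 and 1.25. It also had the lowest Dsc2 and Dsc3 of all libraries in the basal tertile, at 27.9 and 170 CPM. The Dsc2 interval, 25.5 to 30.4 CPM, overlapped that of day 14, 23.8 to 39.7 CPM. Against the control, Dsc2 after the single dose was lower in the basal tertile (27.9 against 43.7 CPM). In the suprabasal tertile it was higher (87.7 against 59.9 CPM).

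At like ranks the highest library was mostly the same as in all epithelial cells. The lowest changed for some genes in the basal tertile, mostly with overlapping intervals. The fractionated day 7 library was highest for 9 of the 10 genes in the most basal tertile, for 8 in the middle one and for 8 in the most suprabasal one. Day 14 was lowest for 4, 8 and 9 genes in these tertiles. The single dose was lowest for 5 genes in the basal one, namely Dsc2, Dsc3, Dsg3, Jup and Perp. Of these, Dsc3 alone, at 170 CPM (164 to 176), had an interval clear of all other libraries. Dsg3 was at 251 CPM both there and in the control. Of the 4 genes lowest at day 14 in the basal tertile, Dsp alone had a clear interval. For the fractionated day 7 library against the control the median log2 ratio was 0.81, 0.59 and 0.75 in the basal, middle and suprabasal tertiles. Against the single dose it was 0.98, 0.65 and 0.54. Day 14 against the control gave -0.21, -0.73 and -0.57, so the difference from the control was small in the basal tertile, where Dsg3 and Dsc3 were above it by log2 ratios of 0.41 and 0.16. Day 14 against day 7 gave -0.98, -1.15 and -1.13. The Dsc3 share of its pair after the single dose was 85.9%, 86.5% and 80.1%, against 85.6%, 85.4% and 85.1% in the control. The Pkp1 share at day 14 was 67.3%, 63.1% and 80.2%, against 61.6%, 73.5% and 75.8% in the control. At fractionated day 7 the Dsc3 share was lowest and the Pkp1 share highest in every tertile, although the basal Pkp1 interval overlapped that of day 14.

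**Figure D4:**
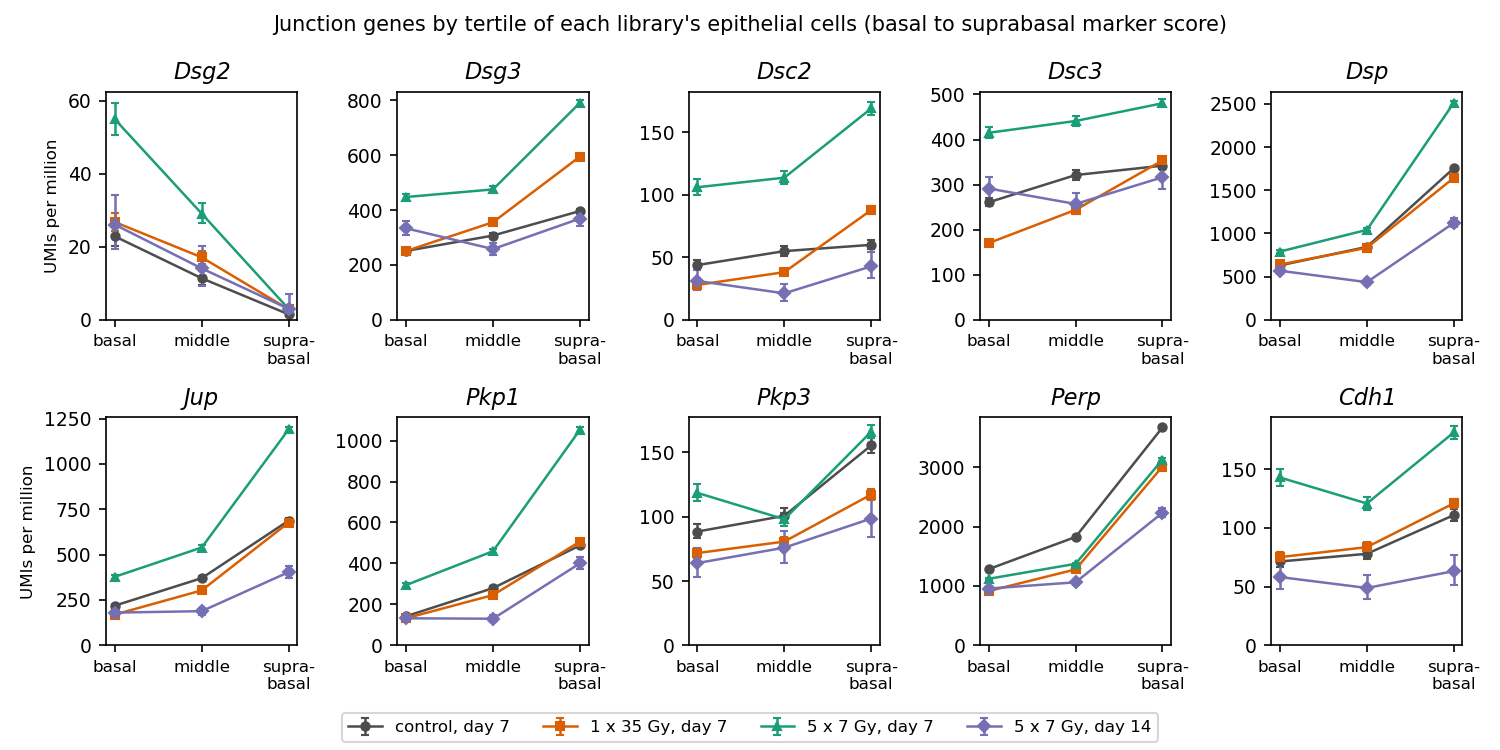
Level of each junction gene (CPM, linear axes from 0) in the most basal, middle and most suprabasal tertile of the epithelial cells of each library, with exact Poisson 95% intervals. Dsg2 declines from basal to suprabasal in every library while Pkp1, Jup, Dsp and Perp are highest suprabasally.

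A terminal suprabasal-like cluster, led by Cnfn, Sbsn and Tgm3, held 114 control, 127 single-dose and 186 fractionated day 7 cells. Levels could thus be compared within 1 cluster, although its cells need not be in the same state in each library. Dsp was at 2034, 2217 and 3381 CPM there, Jup at 862, 969 and 1559 CPM, Pkp1 at 479, 598 and 1178 CPM and Dsc2 at 11.4, 66.6 and 131 CPM in the same order. Perp was level, at 4819, 4556 and 4658 CPM, and Pkp3 was lowest after the single dose, at 212, 155 and 231 CPM. Dsg2, on 2, 1 and 5 UMIs, fell below the minimum of 20 UMIs in each pair. Over the other 9 genes the median log2 ratio was 0.92 for the fractionated library against the control, 0.64 against the single dose, and 0.17 for the single dose against the control, and with Dsg2 included it was 1.05, 0.66 and 0.16. In the 4 other clusters shared by both irradiated day 7 libraries the fractionated library had the higher median, by 0.31, 0.53, 0.58 and 0.59. In the 2 clusters shared by control and day 14 cells the median at day 14 was lower, at -0.23 and -0.50.

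The share of cells with a UMI was read after thinning each cell to 2000 UMIs, which removes the difference in depth and left out 531 epithelial cells of the fractionated day 7 library and 34 to 99 of each other library. Out of the 10 genes an epithelial cell then showed on average 3.93 in the control, 3.72 after the single dose, 4.95 at day 7 of the fractionated course and 3.29 at day 14. The share of cells with 5 or more was 35.4%, 32.0%, 61.0% and 21.3%. Mural cells, which should lack these genes, showed 0.30, 0.50, 0.52 and 0.08 on average, with unthinned medians of 3624, 5071, 1618 and 4896 UMIs per cell.

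For Pkp1 the thinned share was 40.0% (38.1 to 42.0), 36.4% (34.7 to 38.1), 59.5% (58.3 to 60.8) and 31.4% (26.8 to 36.3) of epithelial cells, against at most 4.90% of mural cells. The thinned Pkp1 share was higher in some other classes. It was 8.43% in blood endothelial cells of the fractionated day 7 library and 6.06% in macrophages and monocytes of the single-dose library. In the latter cells the Dsg3 share was 11.7% (10.4 to 13.1), against 6.89% for Jup and 2.47% for Dsc3. Epithelial Dsg3 and Jup were close in that library, at 430 and 427 CPM. Dsp and Perp, with higher epithelial levels, were at 13.9% and 14.9%. In fibroblasts, mural and blood endothelial cells of that library the Dsg3 share was at most 5.17%. The source of the Dsg3 UMIs in macrophages and monocytes was not tested. For Dsc2 the thinned share was 10.5% (9.26 to 11.7), 9.87% (8.84 to 11), 21.5% (20.5 to 22.6) and 5.45% (3.41 to 8.22) of epithelial cells, against at most 2.10% of mural cells. Cdh1 was seen in 15.2%, 16.9%, 25.3% and 10.9% of epithelial cells and Perp in 96.0%, 89.4%, 92.5% and 88.1%. Without thinning, Dsc2 was seen in 47.2%, 49.4%, 48.5% and 28.4% of cells, so the higher level in the shallow fractionated day 7 cells was not visible in the unthinned share.

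Across the 16 combinations of cluster and library with at least 100 cells, Dsp, Jup and Pkp1 followed each other most closely, with a Pearson r of 0.98 for Dsp with Jup, 0.98 for Pkp1 with Jup and 0.96 for Dsp with Pkp1. Dsg2 had a median r of -0.68 with the other 9 genes and -0.96 with Perp. These are descriptions over points that share libraries, depth and cell state. Of 10284 genes, those whose pattern was among the most like the mean of the 10 included Atp6v1a, a subunit of the vacuolar proton pump, Heatr4, Pld1, a phospholipase D, and Erbb2, a receptor tyrosine kinase, with r between 0.94 and 0.96. Erbb2 was at 16.8, 17, 39.4 and 11.6 CPM in the 4 libraries, listed from control through single dose to the 2 fractionated time points.

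Dsc2 and Pkp1 were past 2-fold in both day 7 comparisons of the fractionated library, and Perp was the 1 gene below the control there. The Dsc2 window overlaps its own gene by 125 bases and is not shown. To set Pkp1 and Perp side by side, the 250 bases upstream of their start sites in the RefSeq table (assembly GRCr8) are shown. Both strands were searched. The capitals mark the GC box GGGCGG, the E-box with the letters CAGGTG, and the palindromic AP-1 motif TGANTCA, each in either orientation, and none of these motifs contains another. The Pkp1 window lies on the minus strand at chr13:49909163-49909412 and the Perp window on the plus strand at chr1:15361534-15361783.
Pkp1: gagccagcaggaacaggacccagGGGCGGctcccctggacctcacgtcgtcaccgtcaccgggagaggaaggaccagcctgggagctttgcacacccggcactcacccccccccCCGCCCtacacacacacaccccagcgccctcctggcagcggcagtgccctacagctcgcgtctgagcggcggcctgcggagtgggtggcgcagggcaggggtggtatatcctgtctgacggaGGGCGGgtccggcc
Perp: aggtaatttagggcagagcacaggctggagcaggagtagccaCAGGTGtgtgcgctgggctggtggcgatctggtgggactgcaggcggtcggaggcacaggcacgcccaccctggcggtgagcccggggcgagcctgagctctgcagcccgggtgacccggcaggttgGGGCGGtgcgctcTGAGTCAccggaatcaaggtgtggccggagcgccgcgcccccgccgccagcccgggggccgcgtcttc
Pkp1 holds 3 GC boxes and neither an E-box nor an AP-1 motif in this window, while Perp holds 1 of each. The Dsc2 window holds 2 GC boxes and, unlike that of Pkp1, an E-box. Entries were found for 8 of the 10 genes, with none used for Pkp3 and Cdh1. A GC box was present in 7 of the 8, against 30.5% of all 33469 windows of the same length, the E-box in 5 of the 8 against 15.9%, and the AP-1 motif in 1 of the 8 against 6.34%. The windows of Dsp and Jup lie wholly, and that of Dsc2 in part, inside the outermost bounds of their own gene in RefSeq, so they may hold transcribed sequence. Without these 3 the GC box was in 4 of 5 windows, against 24.9% of the 19339 windows known to lie outside their gene, and the E-box in 2 of 5 against 15.3%. The Grainyhead-like motif AACNGGTT was in none of the 8 windows, against 1.76% of all windows. The upstream windows of the 8 genes were between 51.6% and 75.2% GC. A match is a run of letters and says nothing on binding.

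Other desmosome and plakin genes followed the 10 only in part. Of 8 listed, 5 were measured. Their median log2 ratio was -0.88 after the single dose and 0.07 at day 7 of the fractionated course against the control, and -1.29 at day 14, where 4 of the 5 were at least 2-fold lower, against 6% of all genes. Dsg1, the desmoglein of the upper layers, was at 150 CPM in the control, 80.5 after the single dose, 99.1 at day 7 of the fractionated course and 65.8 at day 14, and Dsc1, the desmocollin of the upper layers, at 28.4, 10.4, 24.3 and 4.57 CPM. Ppl (periplakin) was at 107, 58.5, 113 and 27.1 CPM and Evpl (envoplakin) at 94.2, 54.7, 143 and 38.5 CPM. The single dose thus lay below the control for these 4 genes of the upper layers, although Dsg3 and Cdh1 did not. Day 14 was lowest for all 4. Pkp4, the fifth gene, differed from them, with 15.3, 23.6, 18.2 and 14.2 CPM and its highest value after the single dose.

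Of 13 adherens junction genes measured, 3 were at least 2-fold higher in the fractionated day 7 library than in the control, against 11.4% of all genes, and none was at least 2-fold lower, against 12.6%. The 3 were Cdh3 (P-cadherin), at 16.0 CPM in the control, 38.4 after the single dose, 38.3 at day 7 of the fractionated course and 27.1 at day 14, Nectin1, at 63.2, 98.5, 185 and 42.2 CPM, and Ajuba, a LIM protein bound to alpha-catenin, at 30.9, 46.5, 76.8 and 49.8 CPM. Nectin4 went the other way at day 14, with 10.7 CPM against 41.4 CPM in the control. Unlike Cdh1, Cdh3 was higher than in the control in all 3 irradiated libraries.

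Tight and gap junction genes held larger contrasts for single genes. Of 18 tight junction genes, 5 were at least 2-fold lower after the single dose than in the control, against 11% of all genes. In the fractionated day 7 library 3 of the 18 were, a share near the 12.6% of all genes. None was at least 2-fold higher in either, against 9.54% and 11.4%. Cldn4, a sealing claudin, was at 578, 52.8, 34.2 and 224 CPM, and Cldn3 at 29.4, 10.5, 6.28 and 22.9 CPM, in that same order. Among 8 gap junction genes Gjb2 (connexin 26) was at 16.8, 53.6, 62.4 and 9.5 CPM and Gja1 (connexin 43) at 411, 344, 535 and 204 CPM. Cldn4 and the stress genes were low in the same 2 libraries, and the part of the latter was not tested.

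Among 14 transcriptional regulators of epithelial junctions, 5 were at least 2-fold lower after the single dose than in the control, against 11% of all genes, and none was at least 2-fold higher. In the fractionated day 7 library 7 were at least 2-fold lower, against 12.6%, and 2 at least 2-fold higher, against 11.4%. The 7 included genes near the floor, among them Snai1, Zeb2 and Twist1. These were at 1.43, 1.97 and 0.96 CPM in the control and on 20, 16 and 12 UMIs in the fractionated day 7 library. Snai1 and Twist1 were also among the 5 lower after the single dose. The fibroblast marker sums were lower in these libraries too, and their part was not tested. Klf4, a factor of epithelial differentiation that is also an early response gene, was at 893, 137, 152 and 544 CPM, and Ovol1 at 218, 33.0, 41.5 and 103 CPM, in the order used above. Grhl3, a Grainyhead-like factor of barrier formation, was at 41.8, 23.8, 102 and 13.4 CPM and Tp63, the master factor of stratified epithelium, at 58.5, 92.1, 174 and 69.1 CPM. Grhl3 and Tp63 thus shared with 9 of the 10 junction genes their highest value in the fractionated day 7 library, and Klf4 and Ovol1 shared with Perp theirs in the control. Of the shedding proteases and their inhibitors, 11 of 15 were measured, and Klk8, a kallikrein, was at 109, 45.4, 56.1 and 39.8 CPM.

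In the endothelial, mural and fibroblast cells of the control most of the 10 genes sat at a few percent of their epithelial level, as the keratins mostly did, but Jup did not in endothelial cells and fibroblasts. Lymphatic endothelial cells had Jup at 430 CPM in the control, 229 CPM after the single dose and 314 CPM at day 14, which is 91.7%, 53.6% and 127% of the epithelial level in those libraries, while Krt5 was at 8.58%, 6.69% and 1.15%. Krt14 reached 35.3% in the control lymphatic cells but 1.05% and 0.90% in the other 2 libraries. Blood endothelial cells had Jup at 182, 76.0, 154 and 93.0 CPM in the 4 libraries, and fibroblasts at 88.6, 58.6, 115 and 71.8 CPM. Plakoglobin is known to bind VE-cadherin in endothelial junctions.

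Dsp in lymphatic endothelial cells was at 146, 360 and 115 CPM in the control, single-dose and day 14 libraries, or 12.3%, 32.0% and 16.8% of the epithelial level. These shares were above those of Krt5 and Krt15 in all 3 libraries, but in the control the share was below that of Krt14. Lymphatic endothelium is known to hold desmoplakin in its junctions. Cdh1 was at 26.4%, 47.9%, 44.0% and 17.3% of its epithelial level in glia, on 39, 20, 6 and 28 UMIs, beside 7.33%, 5.63%, 20.5% and 2.93% for Krt5. In the fractionated day 7 glia, 66 cells, Dsc2 was at 40.9% on 5 UMIs, so the Cdh1 value there did not stand apart. An unnamed cluster of the single-dose library, 62 cells led by genes including Siglech, Irf8 and Blnk, had Cdh1 at 277 CPM on 119 UMIs, or 285% of the epithelial level, while its Krt5 was at 4.02%. In the neutrophil class of the single-dose library the 10 genes were at 14.9% to 59.1% of the epithelial level, beside 28.7% for Krt5 and 39.4% for Krt15, and were not read as expressed there.

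**Figure D5:**
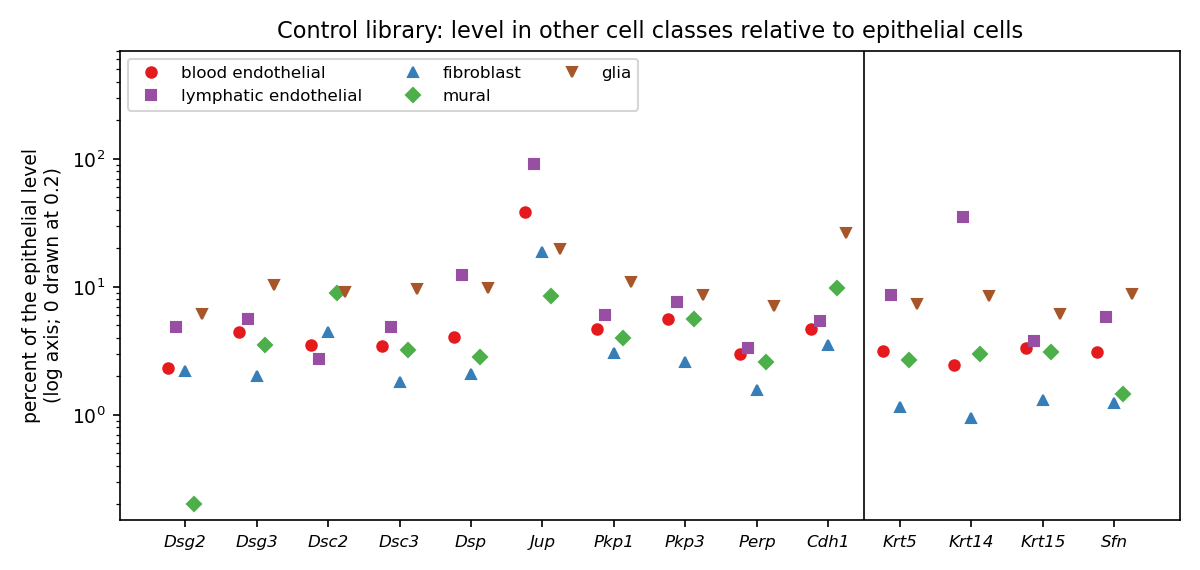
Level of each junction gene, and of Krt5, Krt14, Krt15 and Sfn, in 5 non-epithelial cell classes of the control library as a percent of the epithelial level (log axis, 0 drawn at 0.2). Jup in lymphatic endothelial cells, at 91.7%, stands highest, and Krt14 is at 35.3% in the same cells.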

How the data were processed

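The authors deposited raw UMI count matrices, 1 per library, with no normalization per the values in them, over 32623 features. The submitters' processing notes list the builds mRatBN7.2 and rn7 and, as a tool, Cell Ranger 5.0.0; no gene annotation release was named. Features with the same symbol were added up. No feature coordinates were used.

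The libraries held 12505, 11488, 10887 and 10468 barcodes in the order control, single dose, fractionated day 7 and day 14, with 97207745, 109618791, 59805782 and 80574775 UMIs, and any 2 shared 26 to 38 barcodes. Barcodes passed with 200 or more genes, 500 or more UMIs and a mitochondrial share of up to 20%, and the last limit removed 5.49%, 15.2%, 16.6% and 3.71% of barcodes. Doublets were called with Scrublet in scanpy 1.11.5 (expected 0.8% per 1000 cells) and left out, at 3.86%, 3.08%, 2.22% and 4.18% of cells against 9.45%, 7.79%, 7.26% and 8.06% expected, so some may remain. The junction, regulator and stress genes were kept out of the 2000 variable genes used for 30 principal components, a graph of 15 neighbours and Leiden clusters at resolution 1.0 (leidenalg 0.10.2). Of 34 clusters, 9 were epithelial and 4 stayed unnamed, by mean standardised marker expression. This scoring, its margin of 0.25, the tertiles and the exclusion of cycling clusters were set after the data were seen. Of 130 marker symbols, 123 were found, and of 94 wider junction and stress symbols, 91.

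UMIs were summed over epithelial cells per library as CPM. Ratios have exact conditional binomial, levels exact Poisson and shares exact Clopper-Pearson 95% intervals (scipy 1.17.1), tested on simulated data. PCR and pooling add error these do not cover. Genes with at least 20 UMIs in a pair of libraries were compared, and 2-fold marks a called gene. Named genes were the 10 members, up to 3 per wider list and comparison by the interval bound nearest to 1 (at least 50 UMIs), given in every library, and the 5 most alike genes; 2 genes that this rule names are not reported here. Cdh1 in the unnamed cluster was picked after its value was seen. Snai1, Zeb2 and Twist1 are named outside this rule to show low counts. The members and lists were chosen with earlier results of these data known. Alternatives were a stricter cell filter, doublets kept, a lower resolution, cells classed by their own markers, other scaling, equal weighting, a minimum of 100 UMIs per gene and other thinning depths.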

Additional observations from a re-analysis of the deposited data

How the results depend on the processing

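No paired analysis was possible because each group is 1 pooled library. No value of the 10 genes reversed a called direction. Signs of the log2 ratios were kept in 346 of 350 values under the other filters, clusterings and scalings. They were kept in 142 of 150 in the most basal tertile, in the most suprabasal tertile and without cycling clusters. These settings were added after seeing the data. Most of the losses were in the comparison of the single dose with the control. The main log2 ratios there ran from -0.38 to 0.43, but Dsc2 ranged from -0.65 to 0.55 across settings. For the single dose against the control the median log2 ratio of the 10 genes was -0.22 with the stricter cell filter (at least 500 genes, at most 10% mitochondrial UMIs), -0.18 with median-of-ratios scaling, -0.20 in the most basal tertile and 0.051 in the most suprabasal one. For the fractionated day 7 library against the control it was 0.91 with every cell weighted equally. For day 14 against the control it was -0.45 with equal weighting and -0.21 in the most basal tertile. In the most suprabasal tertile 1 gene, Dsg2, was at least 2-fold higher, on 5 UMIs against 28 and with overlapping level intervals. For the fractionated against the single dose at day 7 the median was 0.79 with median-of-ratios scaling and 0.91 with equal weighting. It was 0.98 in the most basal tertile and 0.54 in the most suprabasal one, with 5 and 1 genes past 2-fold in those tertiles. For day 14 against day 7 it was -0.98 in the most basal tertile. The cause of these shifts was not tested. The day 14 library, with 419 epithelial cells, limits precision most, and only 86 UMIs of Dsg2 stand behind its values there.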
